A study of Danio rerio with 6 samples.

Results

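Genes for splicing factors and proteins of the small nuclear ribonucleoproteins (snRNPs) were examined in zebrafish with a truncated Ikaros1. They were taken from the table of counts as every gene whose name, case ignored, begins with srsf, snrp, sf3a, sf3b, u2af or hnrnp. This gave 65 of 32105 genes, namely 17 SR proteins, 24 hnRNP proteins, 12 snRNP proteins, 9 subunits of SF3A and SF3B and 3 U2AF proteins. Names in capitals are those of the human ortholog, as 46 of the 65 genes carry it, and where duplicated zebrafish genes carry one such name the Ensembl identifier tells them apart.

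The sequenced RNA was labelled as whole body at 5 days post fertilization. It came from 3 homozygous mutants of the line IT325 (allele t24980) and 3 homozygous wild-type siblings, on a background of mixed wild-type strains. The Ikaros1 protein that the mutants encode keeps the zinc fingers that bind DNA and lacks those of the C-terminal interaction module. Per the methods of the study each genotype was represented by 3 individual fish, and the labels name no batch or date. The libraries held 40732782 to 52954765 counts in mutants and 37390073 to 53279243 in wild type. Levels are given in CPM, a gene's count relative to the library's total count after scaling by TMM (trimmed mean of M-values). The mutated gene (ikzf1, ENSDARG00000013539) was at 1167, 1767 and 1149 CPM in mutants, against 276, 307 and 299.8 CPM in wild type. This was a log2 fold change of 2.21 with an SE of 0.174 and an edgeR adjusted p of 1.17e-04. Its counts do not show the mutated base.

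The libraries were labelled as whole body, and the marker genes of several body tissues were at or near 0 in them. The label may therefore not describe the material that was sampled. In the retina and lens list 12 of 12 genes lay below a mean of 1 CPM and 7 had no count in any library, among them the lens crystallin CRYAA and the rod transducin GNAT1. In the skeletal muscle list 11 of 13 genes lay below 1 CPM, and the summed list was at 6.55 to 8.96 CPM in mutants, against 5.73 to 8.46 CPM in wild type. Markers of blood cells were detected, and their lists did not all move in one direction. Genes of a list are counted as higher or lower at an edgeR adjusted p under 0.05. Over all genes tested 33.9% passed it, 17.5% higher and 16.4% lower. The erythroid list summed to 23920 to 35980 CPM in mutants, against 6655 to 10480 CPM in wild type, with 11 of 11 genes tested higher in mutants. The neutrophil list summed to 26670 to 28360 CPM in mutants, against 16480 to 17280 CPM in wild type, with 3 of 5 genes higher and 1 lower. Most of that sum was lyz, at 19410 CPM on average in mutants, against 11000 CPM in wild type, whereas NCF1 was lower (log2 fold change -0.40, edgeR adjusted p 0.0291) and CEBPA was not called. The neutrophil list had 9 entries, of which 4, mpx among them, had no match by name. The macrophage list summed to 2208 to 2522 CPM in mutants, against 3052 to 3142 CPM in wild type, with 2 of 12 genes higher (marco and csf1ra) and 3 lower (cd74a, cd74b and csf1rb). Its share called, 41.7%, was not far from the 33.9% of all genes tested. The T cell list summed to 225 to 308 CPM in mutants, against 962.5 to 1061 CPM in wild type, with 13 of 14 genes lower, and the B cell list to 327.5 to 428.6 CPM in mutants, against 1304 to 1405 CPM in wild type, with 9 of 9 lower. The part of these shifts in the values below was not tested, and fewer cells of a type and less RNA per cell cannot be told apart in such samples.

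Introns are removed from a transcript by the spliceosome, which is built anew on each intron from snRNPs. U1 snRNP recognises the 5′ splice site, U2AF the 3′ splice site with the pyrimidine tract before it, and U2 snRNP, with SF3A and SF3B, the branch point. SR proteins bind exons and in most cases favour their inclusion, whereas many hnRNP proteins bind exons or introns and oppose it. In human myelodysplastic syndromes, disorders of blood formation, SF3B1, SRSF2 and U2AF1 are among the genes most often mutated.

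Mutants were set against their wild-type siblings to ask which of these genes differed in RNA level when Ikaros1 lacked its C-terminal zinc fingers. Most of the splicing genes differed little between the genotypes, relative to genes in general. Of 64 tested, 13 (20.3%) passed an adjusted p of 0.05 (edgeR, quasi-likelihood), of which 4 were higher and 9 lower in mutants. Over all 17828 genes tested the share was 33.9%, with 17.5% higher and 16.4% lower, and over genes with a mean of at least 5 CPM, where 63 of the 64 lie, it was 39.4%. The median absolute log2 fold change was 0.14 for the splicing genes, 0.36 for all genes and 0.26 for genes with at least 5 CPM. A change of at least 2-fold was found for 1 of the splicing genes, hnrnpa3. Standard errors of the log2 fold change ran from 0.0617 to 0.213, so differences as small as 0.19 on the log2 scale were called. Groups did not overlap for 29 of the 64 genes (45.3%), against 50.5% of all genes tested.

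**Figure D1:**
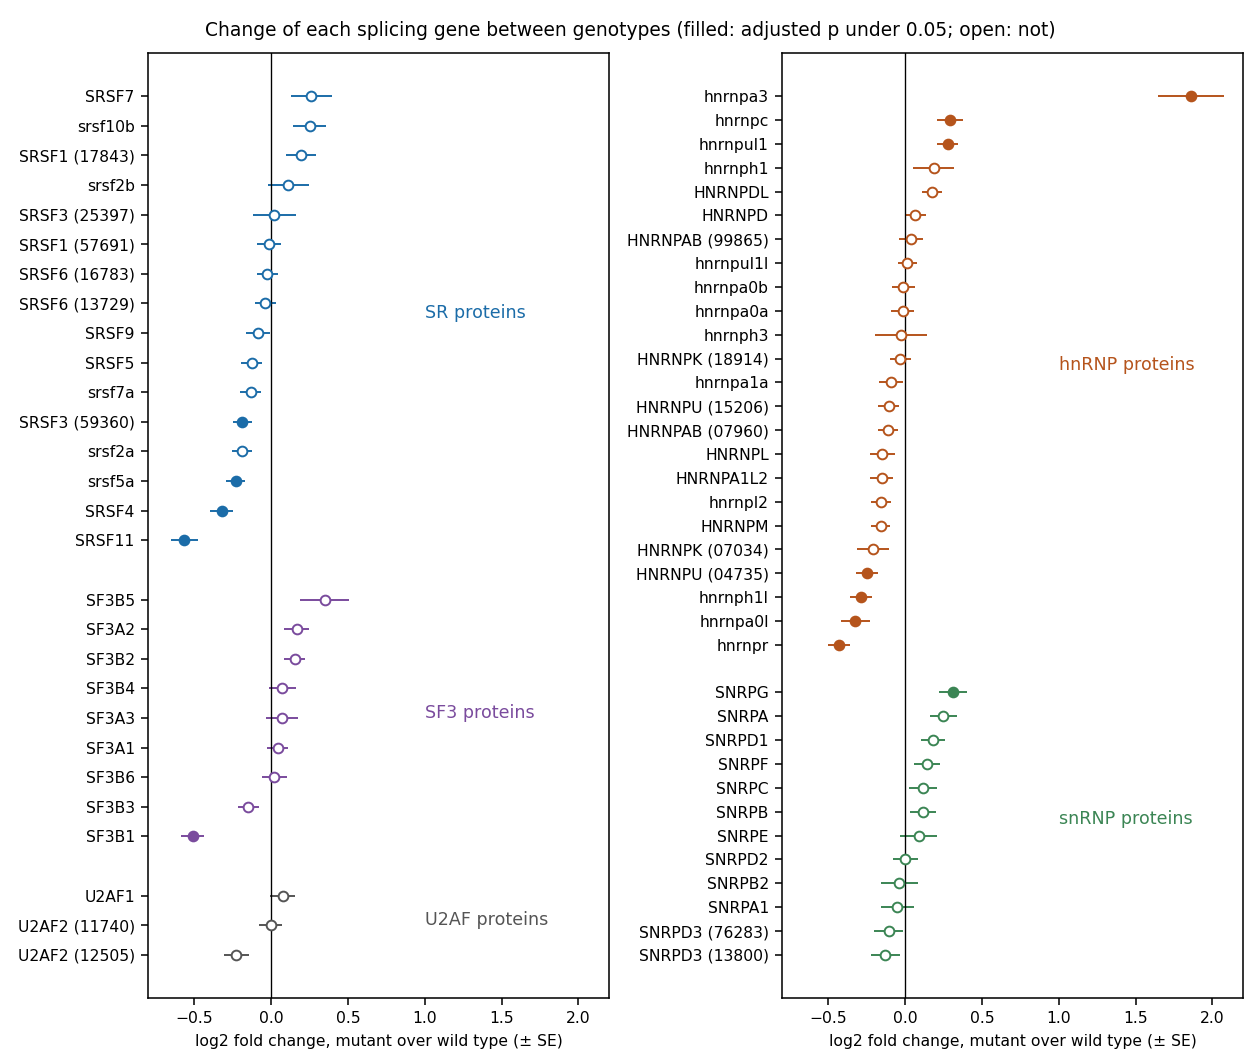
Log2 fold change of each of the 64 splicing genes tested, mutant over wild type, with its standard error as a bar, by class. Filled points passed an adjusted p of 0.05 in edgeR and open points did not, and numbers in parentheses are the last digits of the Ensembl identifier of genes that share a name. All but 1 of the points lie between -0.57 and 0.35, and hnrnpa3 lies at 1.86.

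**Figure D2:**
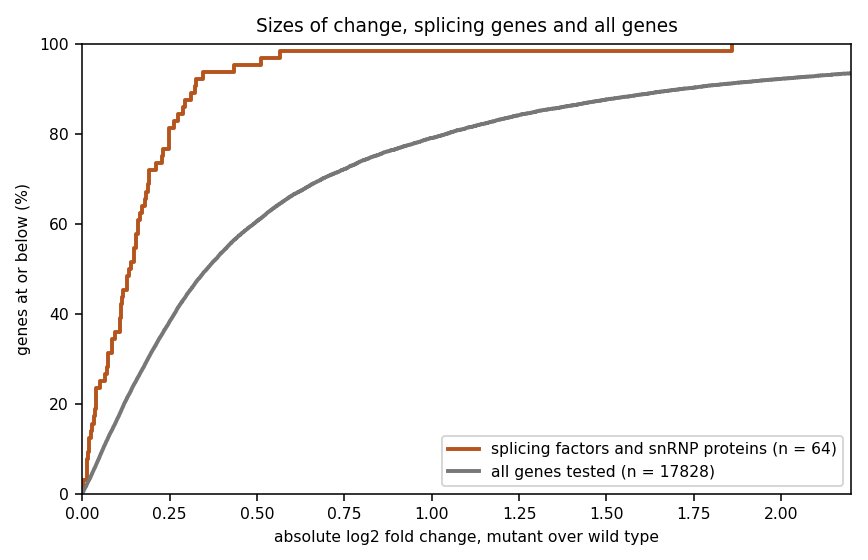
Cumulative share of genes (%) by absolute log2 fold change for the 64 splicing genes and for all 17828 genes tested. The curve of the splicing genes reaches its median at 0.14 and that of all genes at 0.36.

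Of the 13 calls, 5 were also made under each of 12 alternatives, which were other scalings and filters, DESeq2, a replicate block and fits that each left out 1 library. These were SF3B1, SRSF11, SRSF4 and hnrnpr, all lower in mutants, and hnrnpa3, which was higher. The 12 did not include a stricter threshold of 0.01, which SRSF4 missed with an edgeR adjusted p of 0.0111. The other 8 calls had log2 fold changes within 0.35 of 0 and were lost under at least 1 alternative. Scaling changed the balance of directions. Without scaling factors, where the median of all genes fell to -0.11, 17 splicing genes were called, 1 higher and 16 lower, against 4 higher and 9 lower with TMM, the scaling used throughout. Hnrnpa3 was the 1 splicing gene still called higher. Over all 17828 genes tested, 6170 were called without scaling factors, 39.4% of them higher. With TMM it was 6039 genes, 51.7% of them higher. Without any 1 library 7 to 10 splicing genes were called, with 1 to 3 higher and 5 to 7 lower. Over all genes these fits called 4587 to 5978.

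Among the SR proteins 4 of 16 tested (25%) were lower in mutants and 0 higher. Over all genes tested 33.9% were called, 16.4% lower and 17.5% higher. The median log2 fold change of the class was -0.06. SRSF11 (ENSDARG00000098574), an SR-related protein that in mammals associates with U2AF2, had the largest fall of all splicing genes. It was at 204, 231 and 242 CPM in mutants, against 333, 354 and 315 CPM in wild type. The highest mutant lay well below the lowest wild type. The difference amounted to a log2 fold change of -0.57 with an SE of 0.0862 and an edgeR adjusted p of 0.00137, which is a level of 0.676 times wild type, and it lay between -0.61 and -0.49 without any 1 library. SRSF4 (ENSDARG00000105293), a classical SR protein with a long RS domain, was at 78.8, 82.2 and 82.7 CPM in mutants, against 101, 109 and 94.7 CPM in wild type. Here too the groups did not overlap, and the mutants were closer together than the wild types. Mutant over wild type this gave a log2 fold change of -0.32 with an SE of 0.0750 and an edgeR adjusted p of 0.0111.

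The other SR genes called had smaller differences. Srsf5a (ENSDARG00000029818) was at 343 ± 9.13 CPM in mutants, against 403 ± 10.2 CPM in wild type (± SD, 3 libraries each), a log2 fold change of -0.23 (edgeR adjusted p 0.022). Its edgeR adjusted p was 0.066 without mutant replicate 1, 0.0866 without mutant replicate 2, 0.0779 without wild type replicate 2 and 0.0619 with the replicate block. SRSF3 (ENSDARG00000059360), the smallest SR protein, which also serves as an adaptor for mRNA export, was at 149.7, 150.2 and 149.6 CPM in mutants, against 169.5, 170.4 and 172.0 CPM in wild type. The libraries of a genotype were nearly equal, and the genotypes were apart. The log2 fold change was -0.19 with an SE of 0.0620 and the edgeR adjusted p 0.0457, the weakest of the 13 calls. The model moderates a gene's spread by that of other genes, so this SE does not rest on these libraries' spread alone. The call was lost without each of the 6 libraries in turn (edgeR adjusted p 0.0884 to 0.122), with DESeq2 (0.0816), with median-ratio scaling (0.0565), without the filter (0.0885) and with the replicate block (0.111).

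SR genes that did not pass were srsf2a at -0.19 (edgeR adjusted p 0.0543), srsf7a at -0.13, SRSF5 at -0.13, SRSF9 at -0.09, both copies of SRSF6 at -0.04 and -0.03, and SRSF1 (ENSDARG00000057691) at -0.01 on the log2 scale. Above 0 and also not past the threshold were the second SRSF3 gene (ENSDARG00000025397) at 0.02, srsf2b at 0.11, the second SRSF1 gene (ENSDARG00000017843) at 0.19, srsf10b at 0.25 and SRSF7 at 0.26. Without wild type replicate 3 srsf10b was at 0.35 and was called, with an edgeR adjusted p of 0.0312. Srsf3a (ENSDARG00000100815) was counted 8, 1 and 0 times in mutants and 0, 2 and 8 times in wild type and was too low to be tested. Summed over the class, SR transcripts were at 1594, 1659 and 1662 CPM in mutants, against 1870, 1935 and 1877 CPM in wild type, a ratio of means of 0.865. Much of this difference lay in SRSF11 (mean 226 CPM in mutants, against 334 CPM in wild type) and srsf5a (343 against 403 CPM).

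Among the hnRNP proteins 7 of 24 passed the threshold (29.2%, against 33.9% of all genes tested). Of these 3 were higher and 4 lower in mutants, and the class median was -0.06. Hnrnpa3 (ENSDARG00000059351), a member of the A/B family of hnRNPs, was the 1 splicing gene with a large change. It was counted 348, 247 and 285 times in mutants and 56, 71 and 130 times in wild type. This corresponds to 7.15, 6.19 and 6.70 CPM in mutants, against 1.47, 1.68 and 2.35 CPM in wild type, so that the lowest mutant was above the highest wild type by more than the range within either group. On the log2 scale the difference was 1.86 with an SE of 0.213 and an edgeR adjusted p of 3.00e-04, a 3.63-fold higher level, and it lay between 1.72 and 2.09 without any 1 library. At a mean of 4.26 CPM it was also the lowest in reads of the hnRNP genes. Its coding sequence is similar to that of other A/B hnRNPs, and a read that fits several of them may go uncounted or to another gene, so its level is uncertain.

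Hnrnpr (ENSDARG00000014569), which in mammals binds mRNA in the nucleus and in axons, was at 161, 167 and 163 CPM in mutants, against 206, 229 and 227 CPM in wild type. The mutants were close together and all below the wild types. This was a log2 fold change of -0.43 with an SE of 0.0710 and an edgeR adjusted p of 0.00201, a level of 0.741 times wild type.

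Hnrnpa0l (ENSDARG00000036161), whose mammalian relative HNRNPA0 binds AU-rich elements of inflammatory mRNAs, was at 759, 749.8 and 657 CPM in mutants, against 939, 802 and 972 CPM in wild type. The groups did not overlap, although wild type replicate 2 lay close to the mutants. The difference amounted to a log2 fold change of -0.32 with an SE of 0.0930 and an edgeR adjusted p of 0.0267. Its edgeR adjusted p was 0.0542 without mutant replicate 2, 0.0693 without mutant replicate 3, 0.0902 without wild type replicate 1, 0.0745 without wild type replicate 3 and 0.056 with the replicate block. The related genes hnrnpa0a and hnrnpa0b were at -0.02 and -0.01, with edgeR adjusted p-values of 0.868 and 0.913. The log2 ratio of hnrnpa0l to hnrnpa0b within a library was 1.16, 1.07 and 0.91 in mutants and 1.45, 1.28 and 1.35 in wild type. The ratio was lower in each mutant than in each wild type, a description with no test.

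Hnrnph1l (ENSDARG00000005551) belongs to the H/F family of hnRNPs, which bind runs of G. It was at 59.7, 64.85 and 65.3 CPM in mutants, against 74.5, 77.9 and 79.5 CPM in wild type, with no overlap. Mutant over wild type this gave a log2 fold change of -0.29 with an SE of 0.0707 and an edgeR adjusted p of 0.014. Without mutant replicate 1 it was -0.24 with an adjusted p of 0.0512. One of the genes named HNRNPU (ENSDARG00000004735), whose human counterpart ties RNA to chromatin, was at 219 ± 10.03 CPM in mutants, against 259.8 ± 13.4 CPM in wild type (± SD, 3 libraries each). Its log2 fold change was -0.25 (edgeR adjusted p 0.0292), and its edgeR adjusted p was 0.092 without mutant replicate 1, 0.0995 without mutant replicate 2, 0.0815 without wild type replicate 1, 0.0786 without wild type replicate 3 and 0.0525 with the replicate block.

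Hnrnpul1 and hnrnpc were higher in mutants. Hnrnpul1 (ENSDARG00000040564), a relative of HNRNPU that in human cells takes part in the response to DNA breaks, was at 92.9, 92.2 and 87.4 CPM in mutants, against 71.5, 75.3 and 78.2 CPM in wild type. Each mutant was above each wild type. On the log2 scale the difference was 0.28 with an SE of 0.0693 and an edgeR adjusted p of 0.0157. Its edgeR adjusted p was 0.0559 without mutant replicate 2, 0.0709 without wild type replicate 1 and 0.112 without scaling factors. Hnrnpc (ENSDARG00000053810), which binds runs of U and in human cells competes with U2AF2 for them, was at 35.9, 33.8 and 39.1 CPM in mutants, against 28.6, 30.4 and 29.7 CPM in wild type. This was a log2 fold change of 0.29 with an SE of 0.0847 and an edgeR adjusted p of 0.0274. Only the fit without mutant replicate 2 kept this call among those that left out a library, and the edgeR adjusted p was 0.0524 without mutant replicate 1, 0.0776 without mutant replicate 3, 0.0908, 0.0579 and 0.051 without wild type replicates 1, 2 and 3, 0.0536 with the replicate block and 0.157 without scaling factors.

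The other 17 hnRNP genes lay between -0.21 and 0.18 and did not pass. The lowest were HNRNPK (ENSDARG00000007034) at -0.21, HNRNPM and hnrnpl2 at -0.16 each, HNRNPA1L2 and HNRNPL at -0.15 each and HNRNPAB (ENSDARG00000007960) and the second HNRNPU gene (ENSDARG00000015206) at -0.11 each. Between these and the highest were hnrnpa1a at -0.09, the second HNRNPK gene (ENSDARG00000018914) and hnrnph3 at -0.03 each, hnrnpa0a and hnrnpa0b as given above, hnrnpul1l at 0.01, the second HNRNPAB gene (ENSDARG00000099865) at 0.04 and HNRNPD at 0.07. The highest were HNRNPDL at 0.17 (edgeR adjusted p 0.0683) and hnrnph1 at 0.18. The summed hnRNP transcripts were at 3740, 3783 and 3698 CPM in mutants, against 4045, 3922 and 4284 CPM in wild type, a ratio of means of 0.916. Much of this difference lay in hnrnpa0l, at a mean of 722 CPM in mutants, against 904 CPM in wild type.

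**Figure D3:**
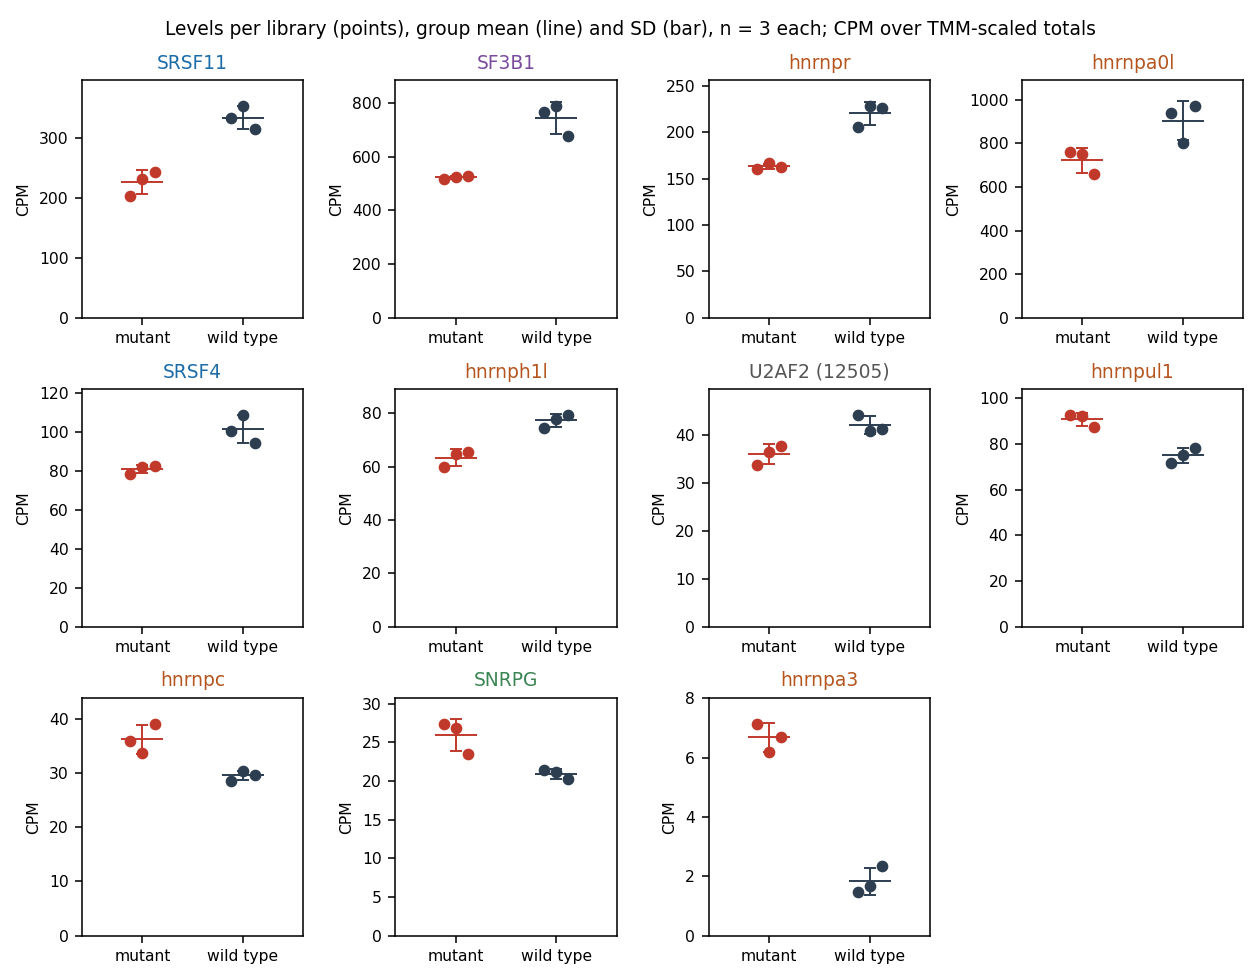
Level in CPM, over totals scaled by TMM, of 11 splicing genes in each library, mutants on the left and wild type on the right of each panel. Points are libraries, horizontal lines the group means and bars the SD (n = 3 each). The genes were chosen as called or as having the smallest adjusted p of their class. In each panel the groups do not overlap, as for 50.5% of all genes tested. Of these genes hnrnpa3 has the largest relative difference, at 6.19 to 7.15 CPM in mutants, against 1.47 to 2.35 CPM in wild type.

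The SF3 subunits did not move together. Of the 9 genes 1 passed (11.1%, against 33.9% of all genes tested), lower in mutants, and the class median was 0.07. SF3B1 (ENSDARG00000056138), the subunit that holds the branch point helix, was at 515, 523 and 529 CPM in mutants, against 765, 790.2 and 679 CPM in wild type. The mutants were nearly equal, and all lay below the lowest wild type. The difference amounted to a log2 fold change of -0.51 with an SE of 0.0737 and an edgeR adjusted p of 0.00104, a level of 0.702 times wild type, and it lay between -0.57 and -0.47 without any 1 library. None of the other 8 SF3 genes passed in edgeR. An unadjusted p under 0.05 in edgeR was found for 0 of the 8, against 7879 of all 17828 genes tested. In DESeq2 these 8 genes were not called either. They were SF3B3 at -0.15, SF3B6 at 0.02, SF3A1 at 0.04, SF3A3 and SF3B4 at 0.07 each, SF3B2 at 0.15, SF3A2 at 0.17 and SF3B5 at 0.35, with standard errors from 0.0687 to 0.158. Without scaling factors SF3B3 was called as well, at -0.25 (edgeR adjusted p 0.036), and SF3B6, SF3A1, SF3A3 and SF3B4 were just below 0. Together these 8 were at 634, 614 and 605 CPM in mutants, against 594, 591 and 625 CPM in wild type. The log2 ratio of SF3B1 to their sum within a library was -0.30, -0.23 and -0.19 in mutants and 0.37, 0.42 and 0.12 in wild type. The ratio was lower in each mutant than in each wild type, a description with no test. Its sign has no meaning, as gene lengths were not used.

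Among the snRNP proteins 1 of 12 passed (8.33%, against 33.9% of all genes tested), higher in mutants, and the class median was 0.10. SNRPG (ENSDARG00000099667), a subunit of the Sm ring that encloses the RNA of most spliceosomal snRNPs, was at 27.4, 26.9 and 23.5 CPM in mutants, against 21.4, 21.1 and 20.2 CPM in wild type. The groups did not overlap. Mutant over wild type this gave a log2 fold change of 0.31 with an SE of 0.0930 and an edgeR adjusted p of 0.0315. The call rested on all libraries but mutant replicate 3, since its edgeR adjusted p was 0.0908 and 0.0994 without mutant replicates 1 and 2, and 0.0703, 0.0732 and 0.0721 without wild type replicates 1, 2 and 3. Without scaling factors it was 0.111.

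The other 7 Sm ring genes lay between -0.13 and 0.18. They were the SNRPD3 genes at -0.13 (ENSDARG00000013800) and -0.11 (ENSDARG00000076283), SNRPD2 at 0.0011, SNRPE at 0.09, SNRPB at 0.11, SNRPF at 0.14 and SNRPD1 at 0.18. Proteins found in U1 snRNP alone were SNRPA at 0.25 (edgeR adjusted p 0.0625) and SNRPC at 0.12, and those found in U2 snRNP alone were SNRPA1 at -0.05 and SNRPB2 at -0.04. None of these 4 passed. SNRPA passed without mutant replicate 2, at 0.33 with an edgeR adjusted p of 0.0317. The Sm ring genes summed to 368, 357 and 332 CPM in mutants, against 318, 321 and 353 CPM in wild type, where wild type replicate 3 lay among the mutants.

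Of the U2AF genes 0 of 3 passed in edgeR and in DESeq2, against 33.9% of all genes tested in edgeR. Over all 17828 genes tested 7879 had an unadjusted p under 0.05 in edgeR, and of the 3 U2AF genes 1 did. That was U2AF2 (ENSDARG00000012505), the subunit that binds the pyrimidine tract, at 33.8, 36.4 and 37.8 CPM in mutants, against 44.3, 40.8 and 41.3 CPM in wild type. The groups did not overlap, as for 50.5% of all genes tested. The log2 fold change was -0.23 with an SE of 0.0798 and an edgeR adjusted p of 0.0569. The second U2AF2 gene (ENSDARG00000011740) was at -0.0026 and U2AF1, which recognises the AG of the 3′ splice site, at 0.07.

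Zebrafish keep many of these genes in duplicate, so it was asked whether the copies of a gene changed unequally. The log2 ratio of the copies was compared between genotypes with limma over 1232 pairs of genes, 429 of which (34.8%) passed an adjusted p of 0.05, and over the 388 pairs named a and b alone, of which 125 (32.2%) passed. Of these pairs 10 were splicing genes, 2 named a and b and 8 sharing a symbol. Genes with related but unlike names, such as srsf7a (-0.13) and SRSF7 (0.26) or srsf5a and SRSF5, met neither rule and were not compared. None of the 10 passed, 0 had an unadjusted p under 0.05, and their limma adjusted p-values ran from 0.199 to 0.975. Among these 10 the largest difference was that of srsf2a to srsf2b, at -0.32 (SE 0.166). Next came the U2AF2 genes (ENSDARG00000012505 to ENSDARG00000011740) at -0.22 (SE 0.142) and the SRSF3 genes (ENSDARG00000025397 to ENSDARG00000059360) at 0.21 (SE 0.145). With standard errors of 0.122 to 0.166, unequal changes of this size were not detectable with 3 libraries a group.

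The rest of the splicing machinery was read from lists by complex. Together they held 149 genes tested, of which 10 were higher and 28 lower in mutants (25.5%, against 33.9% of all genes). Of the U4/U6.U5 tri-snRNP proteins 1 of 26 was higher and 1 lower (median 0.12). For the SMN complex and other factors of Sm ring assembly, such as PRMT5 and CLNS1A, 0 of 11 were higher and 1 lower (median -0.05). LSM2, of the ring around U6 RNA, was at 12.8 ± 0.356 CPM in mutants, against 8.31 ± 0.1498 CPM in wild type (± SD, 3 libraries each; log2 fold change 0.62, edgeR adjusted p 0.00207). GEMIN4 of the SMN complex was at -0.46 (edgeR adjusted p 0.0187) and was called under 9 of the 12 alternatives. Of the Prp19 complex and catalytic step proteins 3 of 29 were higher and 2 lower (median 0.04), with CTNNBL1 at 0.54 (edgeR adjusted p 0.0124). Of the exon junction complex and its partners 0 of 9 were higher and 2 lower (median 0.01), the 2 copies of the apoptosis-linked factor acinus, acin1a at -0.45 and acin1b at -0.29 (edgeR adjusted p 0.00229 and 0.0112). Of the other U1, U2, U11 and U12 proteins 1 of 23 was higher and 5 lower (median -0.07), with SNRNP25 at 0.503 (edgeR adjusted p 0.0106). Among its 5 lower genes were puf60a at -0.43 and PRPF39 at -0.40 (edgeR adjusted p 0.00151 and 0.00216), named after their values were seen.

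Kinases and phosphatases that act on SR proteins formed a short list in which 1 of 7 was higher and 3 lower (median -0.23). The share called was 57.1%, against 33.9% of all genes tested and 39.4% of those with a mean of at least 5 CPM. The 3 lower genes were CDC2-like kinases, clk4a at -0.53 and the CLK2 genes at -0.38 (ENSDARG00000059870) and -0.33 (ENSDARG00000062954), with edgeR adjusted p-values of 0.00317, 0.0181 and 0.00728. In this order they were called under 12, 10 and 12 of the 12 alternatives. Clk4a was at 146 ± 16.3 CPM in mutants, against 212 ± 12.51 CPM in wild type (± SD, 3 libraries each). The other direction was taken by srpk1b, an SR protein kinase, at 0.38 (edgeR adjusted p 0.00985), called under 11 of the 12. Its relatives SRPK3 and srpk1a were at 0.49 and 0.25, and PPM1G was at -0.23. None of these was called (edgeR adjusted p 0.0506, 0.0613 and 0.0662).

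A list of regulators of alternative splicing other than SR and hnRNP proteins by name had 18 of 44 genes called (40.9%). Over all genes tested the share was 33.9%, and over genes with a mean of at least 5 CPM it was 39.4%. The list had 4 genes higher and 14 lower, with a median of -0.196. It also held BUD23 (-0.21, not called), which is not a splicing regulator. PCBP2, which binds runs of C and has roles in mRNA stability, was at 239 ± 19.8 CPM in mutants, against 151 ± 12.9 CPM in wild type (± SD, 3 libraries each). Its log2 fold change of 0.66 was the largest rise of the list (SE 0.0918, edgeR adjusted p 8.32e-04). Of the 14 lower genes, rbm25a was at -0.60, CELF2 at -0.57, matr3l1.1 at -0.45 and RBM39 at -0.38 (edgeR adjusted p 0.0185, 0.00158, 0.00206 and 0.00507), also named after their values were seen. CELF2, matr3l1.1 and RBM39 were called under each of the 12 alternatives, and rbm25a under 11. Lists for replication and mitosis, which follow dividing cells, had 5 of 21 genes higher and 0 lower (median 0.20). The share called was 23.8%, against 33.9% of all genes tested. The part of these lists in the splicing genes' values was not tested.

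**Figure D4:**
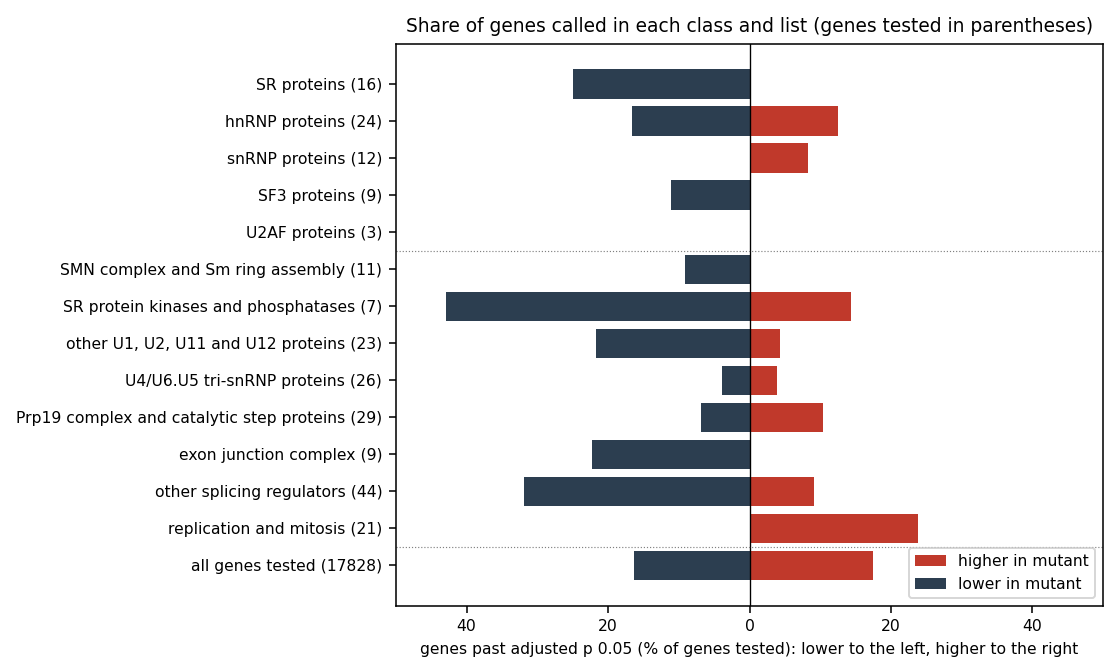
Share of genes tested (%) that passed an adjusted p of 0.05 in edgeR, lower in mutants to the left and higher to the right, for the 5 classes of splicing genes, for 8 other lists and for all genes, with the number tested in parentheses. SR proteins have calls to the left only (4 of 16), hnRNP proteins on both sides (4 and 3 of 24), and all genes 16.4% to the left and 17.5% to the right.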

How the data were processed

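Per the labels, libraries were stranded and made from polyadenylated RNA. Paired-end reads of 75 bases were aligned by the authors to the zebrafish genome with STAR 2.5.2b-1 and Ensembl annotation and counted per gene with featureCounts 1.6.0.1 at default settings, and raw counts were deposited. Symbols from a separate list covered 81.8% of genes. Default counting does not use strand, so reads of a gene and an overlapping antisense gene cannot be told apart. No lengths were used, so levels are not compared between genes.

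Genes were tested in edgeR 4.0.16 (R 4.3.3): filterByExpr with a minimum count of 10, TMM scaling, a robust quasi-likelihood model without covariate, two-sided p-values adjusted by Benjamini-Hochberg over all 17828 genes, threshold 0.05. Fold changes are mutant over wild type with a prior count of 0.125, and standard errors were derived from the F statistic. CPM are counts over TMM-scaled library totals of the genes tested. Pairs of duplicated genes were compared with limma 3.58.1, using log2 CPM (prior count 2), as pairs named a and b (388) and, added after seeing the gene names, pairs of rows sharing a symbol. A list entry ending in a or b with no match was matched to rows with its stem, and 12 of 164 splicing entries had no match. The steps were tested on simulated data whose planted changes were larger than those of all called splicing genes except hnrnpa3. How well smaller differences are called was not tested. The 12 alternatives were median-ratio or no scaling, no filter or a mean of at least 10 counts, DESeq2 1.42.0, a replicate block and each library left out. A threshold of 0.01 for the adjusted p was applied apart from these 12.

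Per-library values are given for the 6 largest rises and falls among called genes of at least 5 CPM and the smallest adjusted p of each class, and SRSF3 was chosen after its values were seen. The genes and lists were chosen with earlier results of these data known. P-values measure the spread between 3 libraries per genotype, not by a gene's own values alone. Both edgeR and limma moderate the spread of a gene or pair by that of the others tested. The methods of the study give the 3 libraries as 3 individual fish, although the label may not describe the material that was sampled.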

Additional observations from a re-analysis of the deposited data

How the results depend on the processing

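Deviations of libraries with the same replicate number correlated at 0.0559, 0.122 and 0.0939, so the numbers were not taken as pairs. A fit with the replicate block called 5370 genes, sharing 5126 with the 6039 of the report, and 8 splicing genes, of which 5 were lower (SR proteins 2, hnRNP proteins 2). The block left 83 pairs of duplicated genes called in place of 125, and adding pairs that share a symbol, chosen after seeing the data, gave 429.

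Without scaling factors 16 splicing genes were lower (hnRNP proteins 7, SF3 proteins 2, U2AF proteins 1) and 1 higher (hnRNP proteins 1, snRNP proteins 0). Of all genes called 39.4% were then higher, against 51.7% with TMM. At an adjusted p under 0.01 3419 genes were called, and of the splicing genes 1 was higher (hnRNP proteins 1, snRNP proteins 0) and 3 lower (SR proteins 1, hnRNP proteins 1).

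Without any 1 library 4587 to 5978 genes were called. Splicing genes called higher were 1 to 3 (SR proteins 0 to 1, hnRNP proteins 1 to 2, snRNP proteins 0 to 1) and lower 5 to 7 (SR proteins 2 to 3, hnRNP proteins 2 to 4), and 70 to 90 pairs were called.

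None of the 13 called genes changed direction under any alternative. Genes that were not called and lay near 0 did. Without scaling factors the log2 fold change was -0.085 for SF3B6, -0.063 for SF3A1, -0.034 for SF3A3, -0.029 for SF3B4, -0.085 for SRSF3 (ENSDARG00000025397), -0.032 for U2AF1, -0.091 for hnrnpul1l, -0.064 for HNRNPAB (ENSDARG00000099865), -0.035 for HNRNPD, -0.10 for SNRPD2 and -0.020 for SNRPE. U2AF2 (ENSDARG00000011740) was at 0.0076 with median-ratio scaling and 0.0094 with DESeq2, and SNRPD2 at -0.0011 with the replicate block. With 1 library left out the values ran from -0.034 to 0.056 for SF3B6, -0.057 to 0.0058 for SRSF6 (ENSDARG00000016783), -0.058 to 0.038 for SRSF1 (ENSDARG00000057691), -0.073 to 0.080 for SRSF3 (ENSDARG00000025397), -0.0033 to 0.24 for srsf2b, -0.044 to 0.053 for U2AF2 (ENSDARG00000011740), -0.18 to 0.12 for hnrnph3, -0.060 to 0.013 for hnrnpa0a, -0.055 to 0.050 for hnrnpa0b, -0.0089 to 0.10 for HNRNPAB (ENSDARG00000099865), -0.12 to 0.053 for SNRPA1, -0.13 to 0.021 for SNRPB2 and -0.028 to 0.070 for SNRPD2. The causes were not tested. With 3 libraries a group, 51 of the 64 genes were not shown to differ, which does not show that they were equal.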
